A study of Mus musculus with 16 samples.

Results

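Inhibitors that damp mitogen-activated protein (MAP) kinase signalling were followed at the RNA level in mouse pancreas during cerulein-induced acute pancreatitis. The set held 10 genes, chosen by name: the dual-specificity phosphatase genes Dusp1, Dusp4, Dusp5, Dusp6, Dusp8 and Dusp10, the Ras pathway inhibitors Spry2, Spry4 and Spred1, and the receptor inhibitor Errfi1. All 10 were found among the 24019 genes of the count table. Whole pancreas was taken from C57BL/6J mice of 6 to 8 weeks, all littermates, in 4 groups of 4 mice, giving 16 libraries. The Adam17ex/ex cerulein and WT cerulein groups received hourly intraperitoneal cerulein, an analogue of the gut hormone cholecystokinin that overstimulates the acinar cells, in 7 injections of 50 µg/kg. The Adam17ex/ex PBS and WT PBS groups received phosphate-buffered saline on the same schedule, and every mouse was culled 1 h after its last injection. Adam17ex is a hypomorphic allele, one that lowers the amount of ADAM17 without removing it, and it is carried in every cell of the mouse, not in the pancreas alone. By the labels 2 of the Adam17ex/ex cerulein mice, 1 of the WT cerulein mice, 2 of the Adam17ex/ex PBS mice and 0 of the WT PBS mice were male, and sex was a term in the model.

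MAP kinases (ERK, JNK and p38) are switched on when both a threonine and a tyrosine in their activation loop are phosphorylated, and dual-specificity phosphatases switch them off by removing both phosphates. Many of these inhibitors are encoded by genes that the kinases themselves turn on, which makes a negative feedback loop whose transcripts rise within an hour of a stimulus and then decay quickly. ADAM17 is a membrane protease that releases ligands of the epidermal growth factor (EGF) receptor from the cell surface and so lies upstream of the Ras-ERK branch that several of these genes restrain.

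Each library was made from 30 ng of total RNA primed at the poly(A) tail, and each molecule carried a unique molecular identifier (UMI), so a count is a number of tagged molecules. Depth ranged from 455547 to 1476159 UMIs per library, and 1 UMI was worth 0.677 to 2.20 CPM (the usual scaling of a count to its library's total). Levels are CPM scaled with TMM factors, and intervals on UMI sums cover counting error only. Adam17ex/ex PBS replicates 1 to 3 stood apart, with 455547 to 492878 UMIs and 7.84% to 9.02% of them from a ribosomal RNA gene, whereas the other 13 libraries held 859573 to 1476159 UMIs and 2.02% to 5.04%. Adam17, the targeted gene, had 15 UMIs in Adam17ex/ex cerulein against 68 in WT cerulein libraries, and 10 in Adam17ex/ex PBS against 41 in WT PBS libraries. In depth-scaled means this was, for Adam17ex/ex against WT libraries, 3.24 ± 0.698 against 13.98 ± 3.73 CPM under cerulein and 3.94 ± 1.66 against 10.03 ± 3.67 CPM under PBS (SD, n = 4 each). The 8 acinar cell markers summed to 133641 to 167577 CPM in Adam17ex/ex cerulein, 92791 to 140625 CPM in WT cerulein, 110674 to 196685 CPM in Adam17ex/ex PBS and 139214 to 193423 CPM in WT PBS libraries, so exocrine pancreas transcripts were abundant in every library. Of the 10 members, 5 passed the filter on low counts and were tested among 8236 genes: Dusp1, Dusp5, Dusp8, Spred1 and Errfi1. A member that passed only through the group where it is high had to differ, so counts over these 5 describe them and stand for nothing wider.

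The 250 bases before the start of transcription are shown first for the genes whose levels are described below, because 3 of them share a sequence element. RefSeq windows on build GRCm38.p6 were matched by symbol for 8 of the 10 members, and were searched on both strands for TGACGTCA (the cAMP response element), TGANTCA (the AP-1 site) and CCGGAA (an ETS core). Capitals mark matches. The windows are Dusp1 at chr17:26508473-26508722 on the minus strand, Dusp8 at chr7:142095285-142095534 on the minus strand, the second annotated start of Errfi1 at chr4:150854820-150855069 on the plus strand, and Dusp5 at chr19:53528895-53529144 on the plus strand, which holds no match and is shown for contrast.
Dusp1: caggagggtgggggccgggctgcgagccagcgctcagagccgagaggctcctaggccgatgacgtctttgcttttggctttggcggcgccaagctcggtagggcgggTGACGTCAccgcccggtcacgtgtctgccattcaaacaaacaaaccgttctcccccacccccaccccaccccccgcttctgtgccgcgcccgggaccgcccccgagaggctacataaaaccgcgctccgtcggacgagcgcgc
Dusp8: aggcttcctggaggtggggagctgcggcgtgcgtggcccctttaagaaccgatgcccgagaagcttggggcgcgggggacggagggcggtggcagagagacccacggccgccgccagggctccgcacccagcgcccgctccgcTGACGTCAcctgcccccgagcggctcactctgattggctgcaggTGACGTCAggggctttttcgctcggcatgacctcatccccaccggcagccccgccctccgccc
Errfi1: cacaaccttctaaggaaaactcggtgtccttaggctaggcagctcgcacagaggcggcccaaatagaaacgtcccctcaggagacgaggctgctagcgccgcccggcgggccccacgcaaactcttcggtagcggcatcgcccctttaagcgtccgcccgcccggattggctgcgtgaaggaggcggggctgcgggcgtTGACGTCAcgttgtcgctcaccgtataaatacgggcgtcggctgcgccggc
Dusp5: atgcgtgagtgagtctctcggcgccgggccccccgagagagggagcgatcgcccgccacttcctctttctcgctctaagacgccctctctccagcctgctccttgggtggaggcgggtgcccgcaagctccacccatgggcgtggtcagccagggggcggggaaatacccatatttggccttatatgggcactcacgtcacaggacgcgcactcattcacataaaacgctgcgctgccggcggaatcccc
The letters TGACGTCA lay 143 to 136 bases before the start in Dusp1, at 107 to 100 and again at 63 to 56 bases in Dusp8, and at 51 to 44 bases in Errfi1. Of 32851 windows of the same length over all RefSeq genes, 508 (1.55%) held these letters, 2217 (6.75%) held TGANTCA and 3952 (12%) held CCGGAA, and the motifs searched do not overlap each other at the matches shown. The windows of Dusp6, Dusp10, Spry2, Spred1 and the first annotated start of Errfi1 held none of the motifs. A match is a run of letters and not evidence of binding, and the absence of a match speaks only of this window.

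The calls of the 5 tested members are counted by comparison, each beside the share of all tested genes called. Dusp1 and Dusp8 were higher in Adam17ex/ex than in WT pancreas under cerulein, Errfi1 was lower, and Dusp5 rose with cerulein in both genotypes, while Spred1 was called in no comparison. A gene was called at an adjusted p under 0.05 in edgeR's quasi-likelihood test over all tested genes. Cerulein in Adam17ex/ex pancreas called 3 of the 5 tested members (Dusp1, Dusp5 and Dusp8), all higher, where 30.3% of tested genes were called, 14.1% higher and 16.2% lower. In WT pancreas it also called 3 members (Dusp5 and Errfi1 higher, Dusp8 lower), against 41.1% of genes, 19.8% higher and 21.3% lower. Between genotypes under cerulein 3 members were called (Dusp1 and Dusp8 higher, Errfi1 lower in Adam17ex/ex), against 9.7% of genes, 5.85% higher and 3.85% lower. The interaction, the cerulein response in Adam17ex/ex minus that in WT pancreas, called Dusp8 (positive) and Errfi1 (negative), against 6.02% of genes, 3.75% positive and 2.27% negative. Between genotypes under PBS edgeR called 0 of the 5, against 1.36% of genes, 0.631% higher and 0.729% lower. There, 2 members (Dusp1 and Errfi1) had an unadjusted p under 0.05, a share that was not taken over all genes. DESeq2 called 1 member and 234 of 8236 genes, and limma-voom called 0 members and 147 of 8236 genes.

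The libraries of 2 groups did not overlap for 3 members with cerulein in Adam17ex/ex pancreas (25.8% of genes did so), for 2 with cerulein in WT pancreas (39.4% of genes), for 3 between genotypes under cerulein (17.5% of genes) and for 1, Errfi1, between genotypes under PBS (10.5% of genes). The median log2 fold change of the 5 tested members for cerulein was 1.18 in Adam17ex/ex and 0.59 in WT pancreas, against -0.03 and -0.04 over all tested genes. Dusp5, which passed the filter through the cerulein groups alone, counts in these medians. It also counts, in both genotypes, in the calls for cerulein and in the groups without overlap for cerulein. Between genotypes the members' median was 0.10 under cerulein, where their changes had opposite signs, and 0.38 under PBS, against 0.01 and 0.03 over all tested genes. The comparisons share libraries and are not independent of each other.

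Of the tested members, the 2 phosphatases that act chiefly on JNK and p38 had the largest genotype differences under cerulein. Dusp1 and Dusp8 were both higher in Adam17ex/ex than in WT pancreas under cerulein, Dusp1 by 3.76-fold and Dusp8 by 7.18-fold. Under PBS neither passed the test between genotypes. In bulk tissue, fewer cells of a type and less RNA per cell cannot be told apart.

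Dusp1 (ENSMUSG00000024190, chr17:26505590-26562128) encodes a nuclear phosphatase, an immediate early gene product with a preference for p38 and JNK over ERK. It stood at 27.9, 17.5, 30.5 and 49.4 CPM in the Adam17ex/ex cerulein libraries, against 11.4, 10.8, 3.49 and 9.68 CPM in the WT cerulein libraries. Every Adam17ex/ex cerulein library lay above every WT cerulein library. Under PBS it had 7.62, 10.1, 17.3 and 16.8 CPM in Adam17ex/ex and 8.02, 3.62, 4.11 and 9.63 CPM in WT pancreas, and these groups overlapped. The genotype difference under cerulein was 1.91 ± 0.36 on the log2 scale (SE, n = 4 per group; adjusted p = 0.00114, edgeR), and every such difference given here is a log2 fold change with its SE. Cerulein raised Dusp1 in Adam17ex/ex pancreas by 1.18 ± 0.38 (adjusted p = 0.0227, edgeR), with every cerulein library above every PBS library. In WT pancreas the cerulein difference was 0.59 ± 0.47, with a 95% interval of -0.39 to 1.56 and an adjusted p of 0.338 by edgeR. The genotype difference under PBS was 1.31 ± 0.50, with an interval of 0.28 to 2.35 and an adjusted p of 0.178 by edgeR. The responses to cerulein were not shown to differ between genotypes, the interaction being 0.60 ± 0.63 with an interval of -0.70 to 1.89 (adjusted p = 0.629, edgeR). The group means ran from Adam17ex/ex cerulein (31.3 ± 13.3 CPM) through Adam17ex/ex PBS (12.9 ± 4.83 CPM) and WT cerulein (8.86 ± 3.65 CPM) down to WT PBS (6.34 ± 2.94 CPM; SD, n = 4 each). Past the highest group, each neighbour in this order overlapped the next.

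The rise of Dusp1 in Adam17ex/ex pancreas was not called without Adam17ex/ex PBS replicates 1 to 3 (1.08, adjusted p = 0.217), without Adam17ex/ex PBS replicate 2 (1.08, adjusted p = 0.0601), without Adam17ex/ex cerulein replicate 4 (0.89, adjusted p = 0.113) or with all libraries thinned to equal depth (0.96, adjusted p = 0.272), all by edgeR. The genotype difference under cerulein was lost on thinning (1.05, adjusted p = 0.367, edgeR) and kept in the other 27 alternatives run. The annotated span of Dusp1 shares 640 bases with that of Ergic1, a gene on the opposite strand with 742 UMIs in all, and whether the counting used strand is not given in the sources used here.

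Dusp8 (ENSMUSG00000037887, chr7:142079490-142095843) encodes a phosphatase that acts on JNK and p38. Its levels were 27.9, 37.5, 43.4 and 44.7 CPM in Adam17ex/ex cerulein libraries, against 9.67, 4.33, 4.19 and 2.42 CPM in WT cerulein libraries. The groups were far apart, with the lowest Adam17ex/ex cerulein library well above the highest WT cerulein library. Under PBS it had 15.2, 25.2, 3.85 and 8.87 CPM in Adam17ex/ex and 9.17, 8.70, 16.4 and 14.4 CPM in WT pancreas, with the 4 Adam17ex/ex libraries spread on both sides of the WT ones. The genotype difference under cerulein was 2.84 ± 0.38 (adjusted p = 2.27e-05, edgeR), and it was called in each of the 28 alternatives run. Under PBS the difference was -0.07 ± 0.46, with an interval of -1.02 to 0.87 (adjusted p = 0.973, edgeR).

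Cerulein moved Dusp8 in opposite directions in the genotypes. It raised Dusp8 in Adam17ex/ex pancreas by 1.65 ± 0.38 (adjusted p = 0.00217, edgeR), with no overlap between the groups, and lowered it in WT pancreas by 1.27 ± 0.45 (log2 fold change -1.27, adjusted p = 0.0262, edgeR), where the groups overlapped. The interaction was 2.92 ± 0.58 (adjusted p = 0.00410, edgeR). Without Adam17ex/ex PBS replicates 1 to 3 the rise was 1.92 (adjusted p = 0.0194) and the interaction 3.26 (adjusted p = 0.00910), both by edgeR. The fall in WT pancreas lost its call in 6 of 27 alternatives. It was not called by edgeR without WT cerulein replicate 2 (-1.22, adjusted p = 0.0544), replicate 3 (-1.16, adjusted p = 0.0805) or replicate 4 (-0.999, adjusted p = 0.0996), or without WT PBS replicate 3 (-1.04, adjusted p = 0.0967) or replicate 4 (-1.16, adjusted p = 0.0648). On thinning to equal depth the fall (-1.15, adjusted p = 0.224), the rise (1.42, adjusted p = 0.0675) and the interaction (2.57, adjusted p = 0.128) all lost the call by edgeR. The order of means was Adam17ex/ex cerulein (38.4 ± 7.66 CPM), Adam17ex/ex PBS (13.3 ± 9.22 CPM), WT PBS and last WT cerulein (5.15 ± 3.13 CPM, against 12.2 ± 3.84 CPM in WT PBS; SD, n = 4 each). The means of the 2 PBS groups did not differ beyond their spread.

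Markers of other cells were read beside these genes. The 7 fibroblast and stellate cell markers, all with UMIs in the series, summed to 295 to 447 CPM in Adam17ex/ex cerulein against 191 to 283 CPM in WT cerulein libraries, the same direction as Dusp1 and Dusp8. Their sum was 417 to 1198 CPM in Adam17ex/ex PBS against 189 to 482 CPM in WT PBS libraries, and in the median it was lower in Adam17ex/ex cerulein than in Adam17ex/ex PBS pancreas (358 against 619 CPM), opposite to both phosphatases. Of the 5 fibroblast markers tested, 0 were called between genotypes under cerulein by edgeR, where 9.7% of tested genes were called. An unadjusted p under 0.05 was found for 1, a share that was not taken over all genes. The 6 adipocyte markers, all with UMIs, summed to 75.4 to 396 CPM in Adam17ex/ex cerulein against 37.0 to 66.1 CPM in WT cerulein libraries, also without overlap. By edgeR 0 of the 4 tested adipocyte markers were called between genotypes under cerulein (9.7% of tested genes), and 1 had an unadjusted p under 0.05, a share again not taken over all genes. With cerulein in Adam17ex/ex pancreas 3 of the 4 were called lower (16.2% of tested genes). The median adipocyte sum was 83.8 CPM in Adam17ex/ex cerulein against 448 CPM in Adam17ex/ex PBS libraries, opposite to both phosphatases. In WT pancreas 4 of the 4 were called lower with cerulein (21.3% of tested genes), the direction of Dusp8 there. Of the 8 acinar cell markers, whose sums are given above, 2 were called higher in Adam17ex/ex than in WT pancreas under cerulein (5.85% of tested genes). They were Cpa1 and Cpb1, genes of pancreatic carboxypeptidases. With cerulein in WT pancreas 4 of the 8 were called lower (21.3% of tested genes). Both are the directions of Dusp8. With cerulein in Adam17ex/ex pancreas 0 of the 8 were called higher (14.1% of tested genes). Bhlha15 was called lower there, at -1.84 ± 0.24 (adjusted p = 6.22e-06, edgeR), opposite to Dusp8. The part of fibroblasts, adipocytes or acinar cells in the results for Dusp1 and Dusp8 was not tested.

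**Figure D1:**
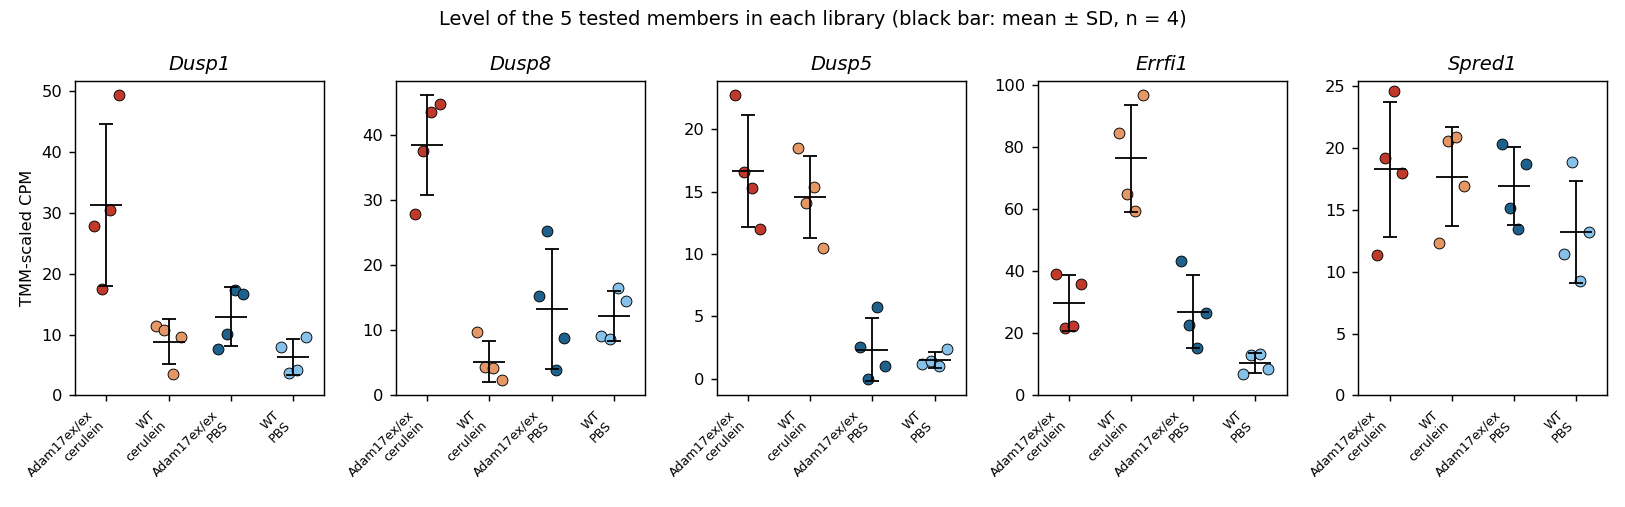
TMM-scaled CPM (linear axis) of the 5 tested members in each of the 16 libraries, by group; each dot is a library and the black bar is the mean ± SD (n = 4). Dusp1 and Dusp8 sit highest in Adam17ex/ex cerulein libraries (17.5 to 49.4 and 27.9 to 44.7 CPM), Dusp5 in both cerulein groups, and Errfi1 in WT cerulein libraries (59.3 to 96.8 CPM), while the Spred1 groups overlap.

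Dusp5 rose with cerulein in both genotypes, and no genotype difference was called for it. The gene (ENSMUSG00000034765, chr19:53529109-53542431) encodes a nuclear phosphatase specific for ERK and is itself a transcriptional target of ERK signalling. It had 22.7, 16.6, 15.3 and 12.01 CPM in Adam17ex/ex cerulein libraries, against 2.54, 0, 5.77 and 0.986 CPM in Adam17ex/ex PBS libraries. In WT it had 18.5, 14.1, 15.4 and 10.5 CPM under cerulein and 1.15, 1.45, 1.03 and 2.41 CPM under PBS. In each genotype every cerulein library exceeded every PBS library.

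The PBS values rested on few molecules. The UMI sums were 72 (95% exact Poisson interval 56.3 to 90.7) in Adam17ex/ex cerulein, 69 (53.7 to 87.3) in WT cerulein, 5 (1.62 to 11.7) in Adam17ex/ex PBS and 6 (2.20 to 13.1) in WT PBS libraries. Dusp5 thus passed the filter through the cerulein groups alone. The fitted rise was 2.83 ± 0.52 in Adam17ex/ex (7.09-fold, adjusted p = 0.000296) and 3.11 ± 0.49 in WT pancreas (8.62-fold, adjusted p = 2.49e-05), both by edgeR, and both were called in each of the 27 alternatives run. Without Adam17ex/ex PBS replicates 1 to 3 the rise in Adam17ex/ex pancreas was 3.83 (adjusted p = 0.00544, edgeR). The genotype difference was 0.10 ± 0.32 under cerulein, with an interval of -0.56 to 0.76 (adjusted p = 0.883, edgeR), and 0.38 ± 0.78 under PBS, with an interval of -1.22 to 1.99 (adjusted p = 0.866, edgeR). The interaction was -0.28 ± 0.80, with an interval of -1.93 to 1.37 (adjusted p = 0.879, edgeR). The means ran from Adam17ex/ex cerulein (16.6 ± 4.49 CPM) and WT cerulein (14.6 ± 3.30 CPM), which did not differ beyond their spread, down to Adam17ex/ex PBS (2.32 ± 2.52 CPM) and WT PBS (1.51 ± 0.626 CPM; SD, n = 4 each), which did not either.

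Errfi1 went the other way from Dusp1 and Dusp8 under cerulein, being lower in Adam17ex/ex than in WT pancreas. The gene (ENSMUSG00000028967, chr4:150853919-150868892) encodes MIG6, a cytoplasmic protein that binds the kinase domain of the EGF receptor and blocks its activity, and that is induced by the receptor's own signal. Its levels were 39.3, 21.8, 22.3 and 36.0 CPM in Adam17ex/ex cerulein libraries, against 84.4, 65.0, 59.3 and 96.8 CPM in WT cerulein libraries. All 4 Adam17ex/ex cerulein libraries lay below all 4 WT cerulein libraries. The difference was -1.33 ± 0.24, a 2.51-fold lower level in Adam17ex/ex pancreas (adjusted p = 0.000908, edgeR). It was called in 28 of 29 alternatives and missed the threshold when the 11 female libraries were fitted alone (-0.98, adjusted p = 0.0549, edgeR).

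Under PBS the libraries lay the other way round. Errfi1 had 43.2, 22.7, 15.4 and 26.6 CPM in Adam17ex/ex PBS libraries, against 6.87, 13.05, 13.3 and 8.42 CPM in WT PBS libraries, with no overlap. The difference of 1.37 ± 0.36 narrowly missed the threshold (interval 0.62 to 2.11, adjusted p = 0.0545, edgeR). It was called by DESeq2 (1.39, adjusted p = 0.0147), and by edgeR with no low-count filter (1.25, adjusted p = 0.0271), with a minimum count of 30 (1.42, adjusted p = 0.0397) and with no sex term (1.30, adjusted p = 0.0296). Without the 3 Adam17ex/ex PBS libraries that stood apart the difference was 1.30 (adjusted p = 0.392, edgeR). Cerulein raised Errfi1 by 2.86 ± 0.29 in WT pancreas (7.28-fold, adjusted p = 6.19e-08, edgeR), with every cerulein library above every PBS library. In Adam17ex/ex pancreas the cerulein difference was 0.17 ± 0.30, with an interval of -0.44 to 0.79 (adjusted p = 0.697, edgeR), and the groups overlapped. The interaction of -2.69 ± 0.43 (adjusted p = 0.000544, edgeR) was called in each of the 28 alternatives run, and was -2.60 (adjusted p = 0.00833, edgeR) without the 3 libraries. The means were 29.9 ± 9.09 CPM in Adam17ex/ex cerulein, 76.4 ± 17.3 CPM in WT cerulein, 26.97 ± 11.8 CPM in Adam17ex/ex PBS and 10.4 ± 3.27 CPM in WT PBS libraries (SD, n = 4 each), and those of the 2 Adam17ex/ex groups did not differ beyond their spread.

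Duct cell markers differed between genotypes in the same direction as Errfi1 under cerulein. The 6 markers, all with UMIs in the series, summed to 283 to 343 CPM in Adam17ex/ex cerulein against 865 to 1131 CPM in WT cerulein libraries, and to 206 to 238 CPM in Adam17ex/ex PBS against 185 to 217 CPM in WT PBS libraries. Like Errfi1, the sum was highest in WT cerulein libraries. Of the 4 duct markers tested, all 4 (Krt19, Krt7, Sox9 and Spp1) were called lower in Adam17ex/ex than in WT pancreas under cerulein and higher with cerulein in WT pancreas. Of all tested genes, 3.85% were called lower in the former comparison and 19.8% higher in the latter. With cerulein in Adam17ex/ex pancreas Krt19 alone was called higher (14.1% of tested genes), while Spp1 had a log2 fold change of -0.58 (adjusted p = 0.0578, edgeR). The part of duct cells or duct genes in the Errfi1 result was not tested.

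Spred1 showed no called change in any comparison. The gene (ENSMUSG00000027351, chr2:117121374-117182279) encodes a membrane protein that brings neurofibromin to Ras and so lowers ERK activation. It had 11.4, 19.2, 24.6 and 18.0 CPM in Adam17ex/ex cerulein, 12.3, 20.6, 20.9 and 16.9 CPM in WT cerulein, 20.3, 15.1, 13.5 and 18.7 CPM in Adam17ex/ex PBS and 11.5, 18.8, 9.24 and 13.2 CPM in WT PBS libraries. All groups overlapped, and no neighbours in their order differed beyond their spread. By edgeR the cerulein difference was 0.08 ± 0.32 in Adam17ex/ex pancreas (interval -0.57 to 0.73, adjusted p = 0.873) and 0.38 ± 0.30 in WT pancreas (interval -0.23 to 0.99, adjusted p = 0.318). The genotype difference was 0.03 ± 0.29 under cerulein (interval -0.57 to 0.62, adjusted p = 0.971, edgeR) and 0.33 ± 0.35 under PBS (interval -0.39 to 1.05, adjusted p = 0.691, edgeR). The interaction was -0.30 ± 0.43 (interval -1.19 to 0.59, adjusted p = 0.727, edgeR).

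**Figure D2:**
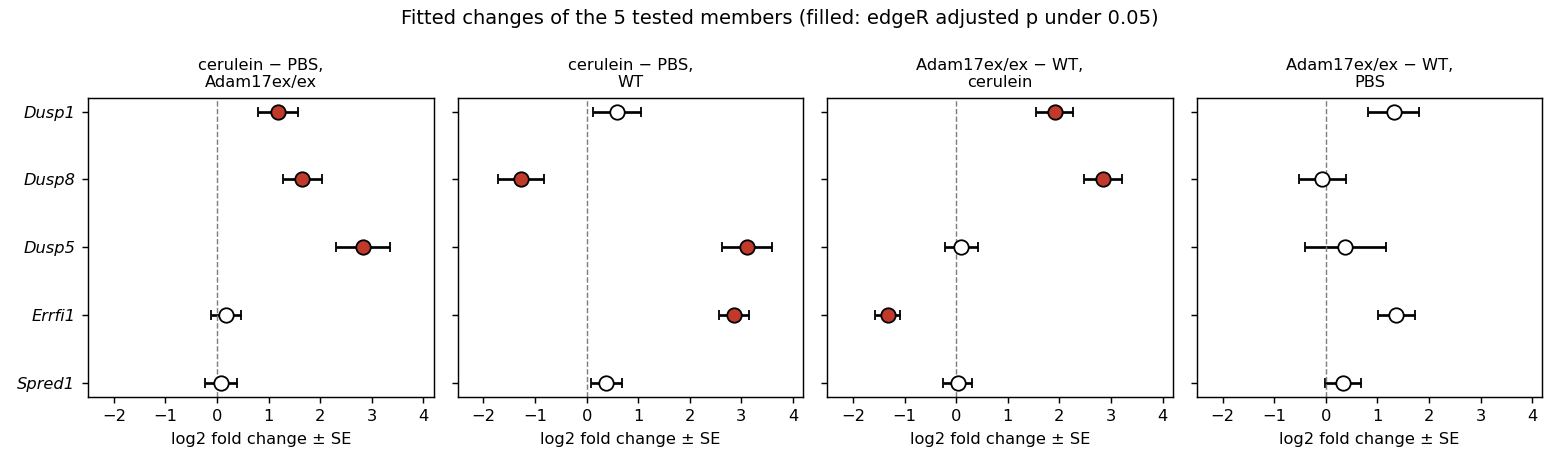
Fitted log2 fold changes of the 5 tested members (points, with SE bars) in 4 comparisons; filled points passed edgeR's adjusted threshold of 0.05. Under cerulein, Adam17ex/ex minus WT is 1.91 for Dusp1 and 2.84 for Dusp8, on the right of 0, and -1.33 for Errfi1, on the left.

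The remaining 5 members had too few molecules for the test. Over the 16 libraries, Dusp6 (ENSMUSG00000019960, chr10:99263231-99267489), whose product holds ERK inactive in the cytoplasm, gave 77 UMIs, and Spry2 (ENSMUSG00000022114, chr14:105891947-105896819), an inhibitor of receptor tyrosine kinase signalling to Ras, gave 44. Spry4 (ENSMUSG00000024427, chr18:38586247-38601415), a relative of Spry2, gave 31. Dusp10 (ENSMUSG00000039384, chr1:184013302-184075636), a phosphatase for JNK and p38, gave 19, and Dusp4 (ENSMUSG00000031530, chr8:34807297-34819894), a nuclear phosphatase related to Dusp1, gave 4.

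Dusp6 summed to 27 UMIs (exact Poisson interval 17.8 to 39.3) in Adam17ex/ex cerulein, 21 (13 to 32.1) in WT cerulein, 13 (6.92 to 22.2) in Adam17ex/ex PBS and 16 (9.15 to 26.0) in WT PBS libraries. Its means were 6.29 ± 2.41 CPM in Adam17ex/ex cerulein, 4.05 ± 3.08 CPM in WT cerulein, 5.77 ± 3.99 CPM in Adam17ex/ex PBS and 3.81 ± 1.35 CPM in WT PBS libraries (SD, n = 4 each), and all groups overlapped. Spry2 summed to 10 UMIs in Adam17ex/ex cerulein, 11 in WT cerulein, 10 in Adam17ex/ex PBS and 13 in WT PBS libraries. Its means were 2.47 ± 1.60 CPM in Adam17ex/ex cerulein, 2.40 ± 0.705 CPM in WT cerulein, 4.48 ± 0.677 CPM in Adam17ex/ex PBS and 3.14 ± 2.13 CPM in WT PBS libraries (SD, n = 4 each). Dusp10 had 7 UMIs in each cerulein group, against 2 in Adam17ex/ex PBS and 3 in WT PBS libraries. Dusp4 had 2 in Adam17ex/ex cerulein, 1 in WT cerulein, 1 in Adam17ex/ex PBS and 0 in WT PBS libraries, where a count of 0 allows up to 0.727 CPM.

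Spry4 summed to 10 UMIs (4.80 to 18.4) in Adam17ex/ex cerulein, 13 (6.92 to 22.2) in WT cerulein, 6 (2.20 to 13.1) in Adam17ex/ex PBS and 2 (0.242 to 7.22) in WT PBS libraries. Scaled for depth its means were 2.21 ± 0.394 CPM in Adam17ex/ex cerulein, 2.71 ± 1.23 CPM in WT cerulein, 2.72 ± 0.796 CPM in Adam17ex/ex PBS and 0.438 ± 0.520 CPM in WT PBS libraries (SD, n = 4 each). In the fit with no low-count filter, over all 24019 genes, the cerulein difference in WT pancreas was 2.33 ± 0.99 (adjusted p = 0.0998, edgeR) and the genotype difference under PBS was 2.22 ± 1.15 (adjusted p = 0.563, edgeR). None of the 5 low members was called in any comparison of that fit.

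**Figure D3:**
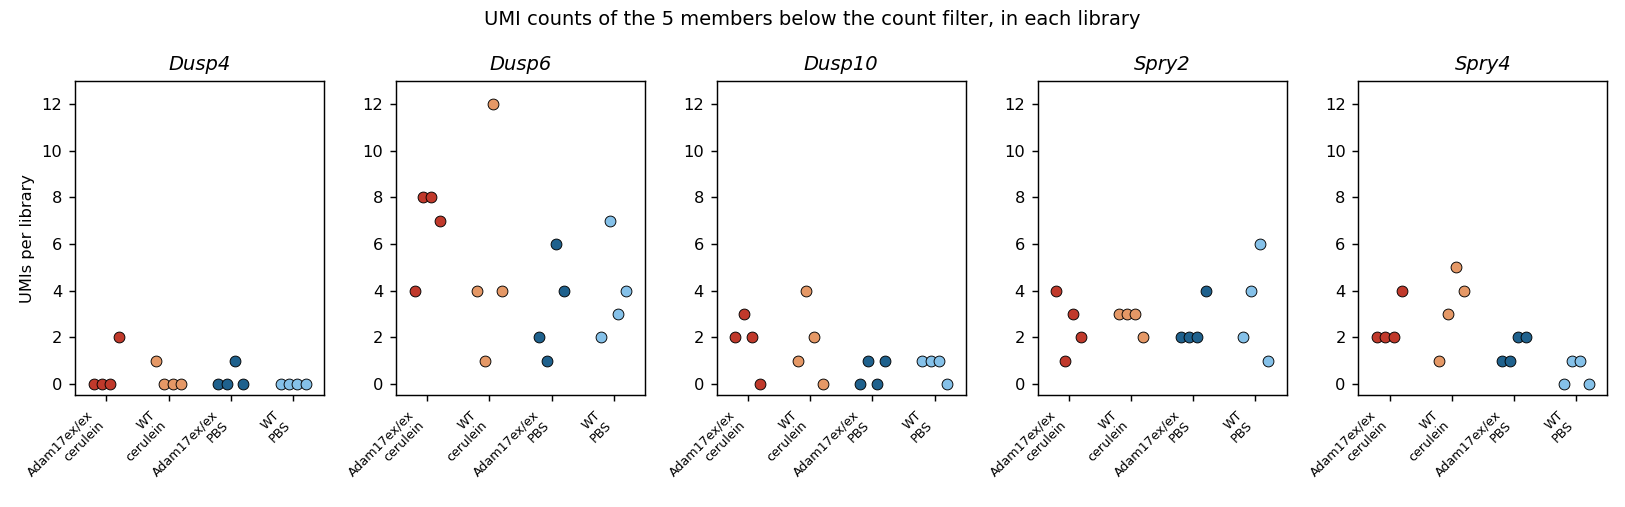
UMI counts (linear axis) per library of the 5 members below the count filter; each dot is a library, in 4 groups. Dusp6 reaches 12 UMIs in a WT cerulein library, and Dusp4 has 4 UMIs over all 16 libraries.

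The rest of the pathway was read from lists by role, starting with the ligands. Of 7 EGF family ligands, 6 were in the table and 3 were tested. Areg was too low for the test, with 16 UMIs in Adam17ex/ex cerulein, 13 in WT cerulein, 6 in Adam17ex/ex PBS and 8 in WT PBS libraries. Hbegf, which encodes a membrane-bound ligand that ADAM17 can release, had 101, 70.7, 109 and 237 CPM in Adam17ex/ex cerulein, against 16.7, 16.3, 20.2 and 23.4 CPM in WT cerulein libraries, with no overlap. Its genotype difference under cerulein was 2.86 ± 0.27 (adjusted p = 1.89e-07, edgeR) and its interaction 2.67 ± 0.54 (adjusted p = 0.00491, edgeR). Btc, the gene of betacellulin, rose with cerulein by 3.64 ± 0.66 in Adam17ex/ex and 1.89 ± 0.50 in WT pancreas (adjusted p = 0.000250 and 0.00409, edgeR). It had 4 UMIs in Adam17ex/ex PBS and 17 in WT PBS libraries, against 105 and 72 in the cerulein groups of the same genotypes. Btc thus passed the filter through the cerulein groups alone and had to differ. Egf was higher in Adam17ex/ex than in WT pancreas under cerulein by 1.33 ± 0.29 (adjusted p = 0.00414, edgeR), and fell with cerulein in WT pancreas by 1.79 ± 0.28 (adjusted p = 2.78e-05, edgeR).

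Among 20 tested genes of the receptors and the Ras-ERK cascade, 5 rose and 2 fell with cerulein in Adam17ex/ex, and 7 rose and 1 fell in WT pancreas. Of all tested genes, 30.3% were called in Adam17ex/ex and 41.1% in WT pancreas, so the share called in this list was near the background in both genotypes. The list medians were 0.26 and 0.41, against -0.03 and -0.04 over all genes. Egfr, the gene of the EGF receptor, rose by 2.23 ± 0.31 in Adam17ex/ex (adjusted p = 1.09e-05, edgeR) and by 2.17 ± 0.27 in WT pancreas (adjusted p = 9.65e-07, edgeR). Nras, which encodes a Ras protein, and Rps6ka3, a kinase downstream of ERK, rose in both genotypes, and Sos2, an exchange factor for Ras, fell in both. The rise of Nras in Adam17ex/ex pancreas was not called without Adam17ex/ex PBS replicates 1 to 3 (0.95, adjusted p = 0.101, edgeR). Between genotypes under cerulein edgeR called 0 of these 20, against 9.7% of all tested genes, while DESeq2 called 0 and limma-voom called 1. Of the 20, 8 had an unadjusted p under 0.05 by edgeR, a share that was not taken over all genes.

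The 13 tested genes of the JNK and p38 cascade gave 4 higher and 2 lower with cerulein in Adam17ex/ex, and 5 higher and 1 lower in WT pancreas, with medians of 0.52 and 0.44. The background was 30.3% of tested genes in Adam17ex/ex and 41.1% in WT pancreas, and the share of this list called in WT pancreas was near it. Map2k3, a kinase that activates p38, rose by 2.33 ± 0.24 in Adam17ex/ex and 2.93 ± 0.22 in WT pancreas (adjusted p = 1.97e-07 and 6.69e-10, edgeR), and Mapkapk2 and Mapkapk3, kinases downstream of p38, rose in both. Mapkapk3 had 9 UMIs in Adam17ex/ex PBS and 18 in WT PBS libraries, and passed the filter through the cerulein groups alone. Between genotypes under cerulein 1 gene was higher and 3 were lower in Adam17ex/ex, against 5.85% and 3.85% of all tested genes. The list median was -0.33, against 0.01 over all genes. The higher one was Map3k5, the gene of the stress-activated kinase ASK1, at 1.495 ± 0.25 (adjusted p = 0.000364, edgeR), and the lower ones were Map2k4 (-1.03 ± 0.27), Mapkapk3 (-1.04 ± 0.31) and Map2k3 (-0.59 ± 0.18), with adjusted p of 0.0171, 0.0329 and 0.0439 by edgeR. Leaving out WT cerulein replicate 4 ended the call of all 3 lower genes, and leaving out WT cerulein replicate 1 or any of Adam17ex/ex cerulein replicates 1 to 3 ended those of Mapkapk3 and Map2k3, the Map2k3 call being lost in 12 of 29 alternatives. Map3k5 was also the one gene of this list called in the interaction, at 1.66 ± 0.43 (adjusted p = 0.0242, edgeR), a call lost without Adam17ex/ex PBS replicate 3 (1.52, adjusted p = 0.0563) or replicate 4 (1.27, adjusted p = 0.0627), on thinning (1.20, adjusted p = 0.447) and in females alone (1.75, adjusted p = 0.170). Its genotype difference was lost on thinning (0.87, adjusted p = 0.349, edgeR) and kept in the other 28 alternatives.

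Of 20 listed transcripts known to be induced by ERK, 13 were tested. With cerulein 9 of the 13 rose, 1 (Ccnd1, the gene of cyclin D1) fell and 3 were not called in each genotype, where 14.1% of all tested genes rose in Adam17ex/ex and 19.8% in WT pancreas. The list medians were 1.69 in Adam17ex/ex and 1.51 in WT pancreas. Some of the genes that rose had few molecules under PBS. Egr1, Ier3 and Fosl2 had 23, 17 and 18 UMIs in Adam17ex/ex PBS and 17, 31 and 20 in WT PBS libraries. They passed the filter through the cerulein groups, so the calls and medians for cerulein describe the tested genes and stand for nothing wider. Egr1, an immediate early transcription factor gene, had 188, 124, 103 and 110 CPM in Adam17ex/ex cerulein, against 44.0, 34.7, 34.9 and 41.1 CPM in WT cerulein libraries. Between genotypes under cerulein the list median was 0.73, against 0.01 over all genes. An unadjusted p under 0.05 was found for 9 of the 13, a share that was not taken over all genes. Called by edgeR were 6 of the 13 as higher and 0 as lower in Adam17ex/ex pancreas, against 5.85% and 3.85% of all tested genes. The 6 higher ones included Klf6 (1.66 ± 0.23, adjusted p = 3.16e-05), Egr1 (1.76 ± 0.25, adjusted p = 5.95e-05), Ier2 (1.42 ± 0.24, adjusted p = 0.000419) and Fos (1.88 ± 0.46, adjusted p = 0.00905), all by edgeR. The Fos call was lost without Adam17ex/ex cerulein replicate 1 (1.38, adjusted p = 0.0925, edgeR). Under PBS Jun alone was called, at 1.68 ± 0.41 (adjusted p = 0.0432, edgeR), a call lost in 15 of 29 alternatives, with its lowest leave-one-out value without Adam17ex/ex PBS replicate 2 (1.07, adjusted p = 0.239, edgeR), and Ier2 alone in the interaction, at 1.77 ± 0.40 (adjusted p = 0.0105, edgeR). Dusp5, known as an ERK target as well, was not called between genotypes under cerulein, its difference being 0.10 ± 0.32.

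Of the 17 other MAP kinase phosphatases, Sprouty relatives and Ras inhibitors, 8 were tested. With cerulein 2 rose and 1 fell in each genotype, a share near the 30.3% of all tested genes called in Adam17ex/ex and the 41.1% in WT pancreas. Dusp16, a phosphatase of JNK and p38, had 76.4, 54.1, 41.1 and 36.0 CPM in Adam17ex/ex cerulein and 22.0, 24.9, 35.6 and 34.7 CPM in WT cerulein libraries, against 27.9, 20.2, 17.3 and 14.8 CPM in Adam17ex/ex PBS and 8.02, 7.97, 13.3 and 10.8 CPM in WT PBS libraries. It rose with cerulein by 1.43 ± 0.29 in Adam17ex/ex and 1.60 ± 0.30 in WT pancreas (adjusted p = 0.000778 and 0.000197, edgeR). It was higher in Adam17ex/ex than in WT pancreas under cerulein by 0.83 ± 0.25 (adjusted p = 0.0329, edgeR), a call lost in 7 of 29 alternatives, among them DESeq2 (0.82, adjusted p = 0.0708) and edgeR without replicate 1 or 2 of either cerulein group (0.52 to 0.78, adjusted p = 0.0803 to 0.250). Dusp3 rose by 0.69 ± 0.23 and 0.94 ± 0.23 (adjusted p = 0.0255 and 0.00197, edgeR) in Adam17ex/ex and WT pancreas, and the call in Adam17ex/ex pancreas was lost in 8 of 29 alternatives, among them thinning (0.38, adjusted p = 0.348, edgeR), 3 fits that left out 1 library, and the fit without Adam17ex/ex PBS replicates 1 to 3 (0.86, adjusted p = 0.110, edgeR). The libraries left out in those 3 fits were Adam17ex/ex PBS replicate 1 (adjusted p = 0.0623) or replicate 4 (adjusted p = 0.0591) and Adam17ex/ex cerulein replicate 4 (adjusted p = 0.0817), all by edgeR. Dusp26 fell, with log2 fold changes of -2.85 ± 0.49 and -1.38 ± 0.41 (adjusted p = 0.000149 and 0.00985, edgeR) in the same genotypes. In Adam17ex/ex PBS 1 library, at 179 CPM, held 182 of the group's 231 UMIs, and the lowest library had 15.1 CPM. The size of the fall in Adam17ex/ex pancreas thus leaned on single libraries, shrinking to -1.63 at the least when 1 was left out, with the call kept. The call in WT pancreas was lost by DESeq2 (-1.31, adjusted p = 0.0633), on thinning (-1.52, adjusted p = 0.0762, edgeR) and without WT cerulein replicate 3 (-1.21, adjusted p = 0.0538, edgeR). Dusp26 was also lower in Adam17ex/ex than in WT pancreas under cerulein, at -1.71 ± 0.50 (adjusted p = 0.0307, edgeR), a call lost in 8 of 29 alternatives, among them edgeR without WT cerulein replicate 1 (-1.28, adjusted p = 0.206) or any 1 of the Adam17ex/ex cerulein replicates (adjusted p = 0.0610 to 0.0822). These lists were chosen with earlier results of the same data known, so their directions are not independent evidence.

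**Figure D4:**
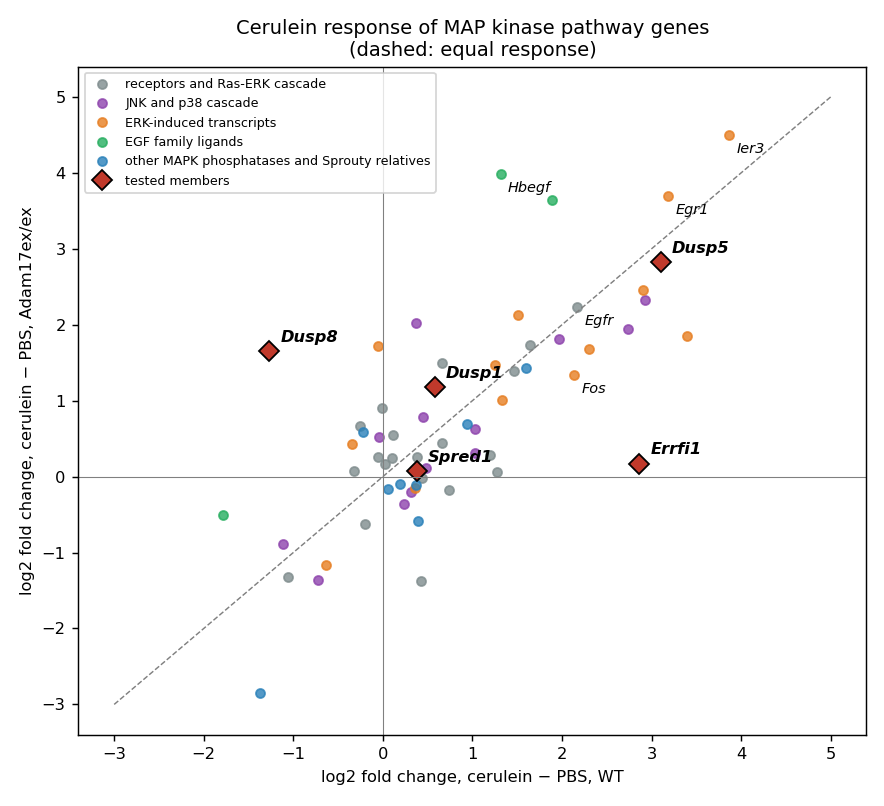
Log2 fold change for cerulein minus PBS in WT (horizontal) and Adam17ex/ex pancreas (vertical) for the tested genes of the pathway lists (dots) and the 5 tested members (red diamonds); the dashed line marks equal response. Errfi1 lies far below the line (0.17 in Adam17ex/ex against 2.86 in WT), Dusp8 (1.65 against -1.27) and Hbegf (3.98 against 1.32) far above it, and Dusp5 close to it.

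The members were also compared in features of their transcripts that had no part in choosing them. The pentamer ATTTA, the core of AU-rich elements that mark short-lived messages, was counted in the longest annotated 3' untranslated region of each gene in GENCODE M21. Dusp1 had 4 copies in 693 bases, or 5.77 per kb, a density above that of 95% of 21685 genes, whose median was 1.15 per kb. Dusp8 had 5 copies (2.11 per kb), Errfi1 had 4 (2.87 per kb), Spred1 had 12 (2.77 per kb) and Dusp5 had 1 (0.899 per kb). Among the low members the count ran from 1 copy in Dusp6 to 7 in Spry4. Spred1, called in no comparison, and Errfi1 had nearly the same density.

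The spread between mice of a group was close to usual for Dusp5, Spred1 and Errfi1 and wider for Dusp1 and Dusp8. The biological coefficient of variation was 28.7% for Dusp1, 23.3% for Dusp8, 20.9% for Errfi1, 18.3% for Dusp5 and 17.6% for Spred1, against a median of 18.3% over all tested genes. Genes with the most similar profile were found by the root mean square difference in centred log2 levels over the 16 libraries, among 6360 candidates. Nearest to Dusp1 were Ifrd1 (0.542), Cish (0.572) and Uba3 (0.604), and nearest to Dusp8 were Mat1a (0.644), Tff1 (0.698) and Stk38l (0.701). For Errfi1 they were Crb3 (0.400), Ptk2b (0.466) and Crip2 (0.486), and for Spred1 Ginm1 (0.275), Tra2b (0.285) and Zfp207 (0.287). No member was among the nearest genes of another, and Dusp5 was too low to enter this ranking.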

How the data were processed

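RNA from whole pancreas of 16 mice, 4 per group, was sequenced from the 3' end. The authors deposited UMI counts, whole numbers for each gene in each library with no normalization. Per the submitters' processing notes they worked with R 4.1.2, edgeR 3.36.0 and limma 3.50.0 on GRCm38 (mm10), while how reads were aligned, counted and collapsed by UMI is not given in the sources used here. Groups, sex and replicate numbers come from the labels, per which the mice were littermates, and the labels also carry a 4-digit code of unknown meaning that was not used. All 24 replicate pairs differed by more than counting noise (chi-square per degree of freedom 3.79 to 13.1), so each library counted once.

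Counts were analysed in R 4.3.3 with edgeR 4.0.16. Genes were kept by filterByExpr with a minimum count of 10 (8236 of 24019), scaled with TMM factors and fitted by glmQLFit and glmQLFTest over all libraries, with a coefficient for each group and a term for sex (11 residual degrees of freedom). A gene was called at a Benjamini-Hochberg adjusted p under 0.05 over all tested genes. The code was tested on simulated data. Alternatives were DESeq2 1.42.0, limma-voom (limma 3.58.1), other scaling factors, other filters, no sex term, a replicate block, only the groups compared, thinning to equal depth, and leaving out libraries; the fit of females alone was added after seeing the data. The 10 members and the lists were chosen with earlier results of these data known. From each pathway list at most 4 called genes per comparison were eligible to be named with values, by smallest p, and Egfr, Hbegf, Areg, Egr1, Fos and Adam17 always; not every eligible gene is named. The most similar genes are the 3 nearest tested genes with a mean count of at least 10, for members with that mean count, on log2(CPM + 1). Gene coordinates are those of the count table on GRCm38; of its identifiers 23994 were in GENCODE M21 and 23794 had the same start and end there. Sequences are from RefSeq, and motif searches used Python 3.11.15.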

Additional observations from a re-analysis of the deposited data

Results flagged for a closer look

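The cerulein response of 2 members differed between the genotypes by the test of the interaction itself. For Dusp8 the response in Adam17ex/ex minus that in WT pancreas was 2.92 on the log2 scale, and for Errfi1 it was -2.69.

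Single libraries stood apart from the other 3 of their group for 2 members with very few molecules. Dusp4 was seen in 1 library each of the Adam17ex/ex cerulein group (replicate 4, 1.33 CPM), the WT cerulein group (replicate 1, 0.879 CPM) and the Adam17ex/ex PBS group (replicate 3, 1.92 CPM), and had 0 UMIs in the others. Spry4 was lowest in WT cerulein replicate 1, at 0.879 CPM. Each of these values is worth 1 or 2 UMIs. A group with 1 library above 0 and 3 at 0 always stands out by this measure, so the 3 Dusp4 values carry no more than the low counts themselves; for continuous values chance singles out about 1 in 20 groups.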

How the results depend on the processing

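The member results were recomputed under up to 29 alternatives. RLE and upper-quartile factors, limma-voom and scaling without digestive enzyme genes kept every count of genes and of members called within 1.5 times. A minimum count of 30 left 1 member, Errfi1, in the test, and called 0 members for cerulein in Adam17ex/ex and 1 in each other comparison; genes called fell to 1550 for cerulein in Adam17ex/ex and 2087 in WT pancreas (2493 and 3388 as reported). Thinned to equal depth, with 4 members tested, cerulein called 1027 genes and 0 members in Adam17ex/ex and 1595 genes and 1 member in WT pancreas, genotype called 249 genes under cerulein (799 as reported) and 13 under PBS (112 as reported), and the interaction 143 genes (496 as reported) and 1 member. Without Adam17ex/ex PBS replicates 1 to 3 the calls were 1360 for cerulein in Adam17ex/ex, 15 for genotype under PBS and 152 for the interaction, and among females alone 1422, 22 and 82, with 273 for genotype under cerulein. Genotype under PBS called 234 genes by DESeq2, 331 with no low-count filter, 406 with no sex term and 14 with only the groups compared, and 1 member in the first 3 of these. The cause of these shifts was not tested.

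No called difference of a member turned in direction, and every turned value below belongs to a difference that was not called. By setting the turned values were, for females alone, -0.97 (Dusp5) and 0.25 (Dusp8) between genotypes under PBS, 1.30 (Dusp5, interaction), -0.37 (Spred1, genotype under cerulein) and -0.17 (Spred1, cerulein in Adam17ex/ex). On thinning they were -0.44 (Dusp1, interaction), 0.35 (Dusp8, genotype under PBS), and -0.51 and -0.16 (Spred1, cerulein in Adam17ex/ex and in WT). Without Adam17ex/ex PBS replicates 1 to 3 they were -0.54 (Dusp5, genotype under PBS), 0.68 (Dusp5, interaction) and -0.058 (Spred1, cerulein in Adam17ex/ex). For Dusp8 between genotypes under PBS the value was 0.0096 with no sex term and 0.28 with only the groups compared.

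Leaving out 1 library at a time gave 2022 to 2615 genes for cerulein in Adam17ex/ex, 2919 to 3555 in WT, 402 to 913 for genotype under cerulein (fewest without WT cerulein replicate 1), 30 to 370 under PBS and 239 to 624 for the interaction, and 2 to 3 members for cerulein in either genotype. Values that turned in it ranged from -0.064 to 0.33 (Spred1, cerulein in Adam17ex/ex), -0.28 to 0.26 (Spred1, genotype under cerulein), -0.24 to 0.24 (Dusp5, genotype under cerulein), -0.60 to 0.17 (Dusp8) and -0.44 to 0.76 (Dusp5) between genotypes under PBS, and -0.65 to 0.55 (Dusp5, interaction).

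Replicate numbers did not pair the samples: same-numbered libraries correlated at -0.22 to 0.24 over 24 pairs, and 6 of 16 libraries were closest to their own number. With the replicate block 230 genes were called for genotype under PBS, Spred1 turned to -0.013 for genotype under cerulein, and every member call was kept. Depth limits the low members, whose group sums were at most 27 UMIs.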
